A study of Mus musculus with 6 samples.

Results

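The markers described here are 10 genes that label stem cells at or near the base of the intestinal crypt, other than Lgr5: Ascl2, Smoc2, Olfm4, Tnfrsf19, Cdca7, Msi1, Prom1, Mex3a, Bmi1 and Hopx. All probe sets annotated to exactly 1 of these symbols were taken, which gave 21 of the 45101 probe sets on the array and 10 of 18193 genes with a symbol. A probe set is a small group of short probes whose signals are summarised as 1 reading. Every gene had at least 1 probe set, and no filter on low values was applied, so all 21 were tested. The rule uses gene names and no measured value, but the genes were chosen with earlier results of these data known. Expression was measured in colon epithelium with Affymetrix Mouse Genome 430 2.0 arrays, 3 for vil-Cre-Bcl9-/-/Bcl9l-/- mice (knockout 1, 2 and 3, pools of 3, 2 and 2 animals) and 3 for wildtype mice (wild type 4, 5 and 6, pools of 3 animals each). All mice were 12 weeks old, on a mixed background of 129SvEv, C57BL/6 and DBA/2. Cre is under the villin promoter, which is active throughout the intestinal epithelium. The labels name vil-Cre for the knockouts alone, so Cre itself and loss of both genes cannot be told apart.

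Stem cells at the crypt base divide throughout life and renew the epithelium. Wnt signals keep them in that state through beta-catenin, which enters the nucleus and activates genes together with TCF/LEF factors. The proteins BCL9 and BCL9L attach to beta-catenin and help it activate transcription. Several of the 10 genes, Ascl2 and Tnfrsf19 among them, are known Wnt targets in crypts. Others, such as Bmi1 and Hopx, were first used to mark slowly dividing cells above the base. The comparison asks whether these markers differ when both co-activators are lost from healthy epithelium.

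No marker probe set passed the limma test between genotypes. Of the 21 probe sets, 0 passed an adjusted p of 0.05, and adjusted p-values ran from 0.991 to 0.999. Over the whole array limma called 0 of 45037 probe sets (0%), and 1867 (4.15%) had an unadjusted p under 0.05. Among the markers 1 probe set did, a Msi1 probe set that read higher in the knockouts, against 2.29% of all probe sets in that direction. The genotypes were fully separated in 2 marker probe sets, against 9.69% of all probe sets. One was that of Msi1, higher in the knockouts (4.93% of all), and the other of Cdca7, lower (4.76% of all). The markers had a median log2 difference of -0.09 (knockout minus wild type), with 8 above 0 and 13 below, where all probe sets had a median of 0.0018. Without knockout 2 the markers' median was 0.0049, on the other side of 0. The 95% interval of a marker difference reached 0.48 either side at the median, and for 18 of the 21 it lay within a 2-fold change in each direction. With 3 arrays per group, a difference smaller than the reach of its own interval could not be told from 0. Larger ones need not pass the adjusted test either. A difference of -1.89 in an Lgr5 probe set did not (limma adjusted p = 0.326).

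**Figure D1:**
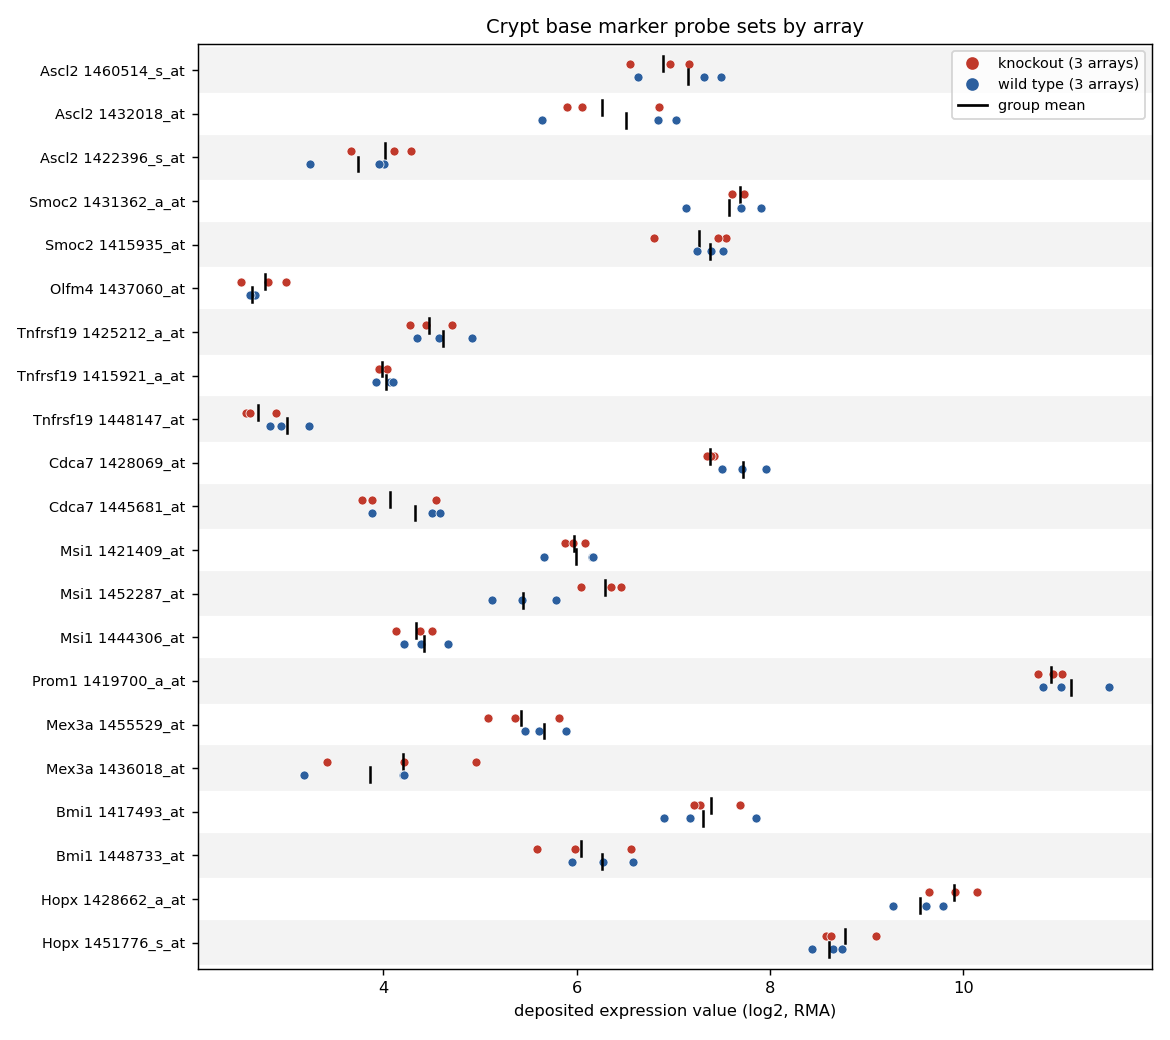
Each row is 1 marker probe set and each point 1 array, with the deposited log2 expression value on the horizontal axis, knockout arrays in red, wild-type arrays in blue and group means as black ticks. Red and blue points separate in 2 rows, the Msi1 probe set 1452287_at, higher in the knockouts, and the Cdca7 probe set 1428069_at, lower in the knockouts.

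Wild type 6 stood apart from the other arrays. A first principal component, with 40.2% of the variance, placed wild type 6 82.5 and the other 5 arrays between -34.4 and 9.54. Colon epithelium markers such as Epcam, Cdh1 and Cdx2 were bright and even, with list means of 12.5 to 12.6 over 20 genes in every array. The preparation was not sorted, and B and plasma cell markers averaged 4.74 to 4.93 in the knockouts, 5.30 in wild type 4, 4.88 in wild type 5 and 7.65 in wild type 6. All 24 probe sets of that list were below 0 in the comparison, and 5 of its 16 measured genes lay above the array median of all probe sets. Wild type 6 was also highest for T cell markers (6.70 against 5.26 to 5.95), connective tissue markers (6.22 against 5.04 to 5.53) and macrophage and neutrophil markers (6.17 against 4.97 to 5.27). The part of these cells in the marker values was not tested. In such mixed samples, fewer stem cells and less RNA per stem cell cannot be told apart. The targeted genes did not differ detectably. Differences were -0.04 and 0.11 for the 2 Bcl9 probe sets and -0.20 to 0.22 for the 3 of Bcl9l (limma adjusted p of 0.991 or more). The sources used here do not say whether these probes lie in the deleted parts.

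**Figure D2:**
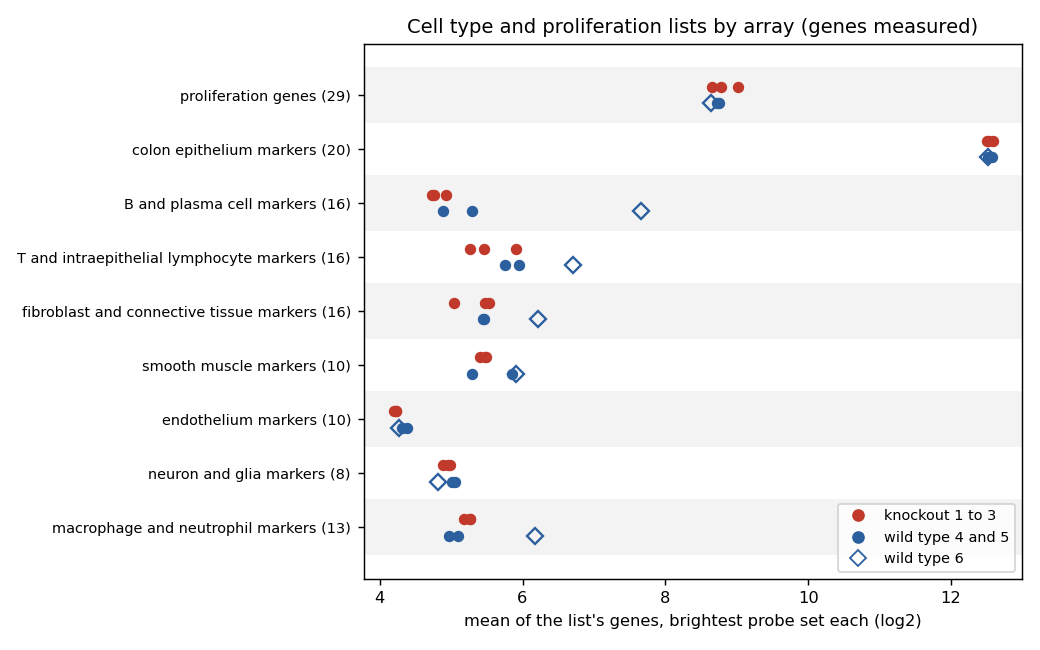
Each row is a list of marker genes (number measured in brackets) and each point 1 array, with the list's mean log2 value on the horizontal axis, knockouts in red and wild type in blue. The open diamond, wild type 6, lies far to the right of all other arrays for B and plasma cell markers (7.65), while epithelial markers lie between 12.5 and 12.6 in all 6 arrays.

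Ascl2 encodes a transcription factor that, with beta-catenin and TCF, sets the gene programme of crypt base stem cells. The brightest of its 3 probe sets, 1460514_s_at, read 7.16, 6.97 and 6.55 in knockout 1, 2 and 3 and 7.32, 7.50 and 6.64 in wild type 4, 5 and 6. Values therefore overlapped, with wild type 6 close to knockout 3, the lowest. The difference was -0.25 (SE 0.26, 95% interval -0.88 to 0.37, limma adjusted p = 0.991). A second probe set built from the same sequence record, 1432018_at, read 6.85, 5.90 and 6.05 in the knockouts and 6.84, 7.03 and 5.64 in wild type. Here knockout 1, wild type 4 and wild type 5 were high and the other arrays about 1 unit lower, so the split did not follow genotype (-0.24, SE 0.42). The dimmest, 1422396_s_at, lay below the array median and pointed the other way, at 4.29, 4.11 and 3.67 against 4.01, 3.95 and 3.24 (0.29, SE 0.26). Wild type 6, the array rich in lymphoid markers, was the lowest array in 2 of the 3 probe sets and next to lowest in the other. Without it the Ascl2 differences were -0.51 (1460514_s_at), -0.67 (1432018_at) and 0.04 (1422396_s_at), and without wild type 5 they were -0.08, 0.02 and 0.40. The first of these, -0.51, had an unadjusted p of 0.0455 and did not pass (limma adjusted p = 0.861).

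Promoter sequence was looked at because BCL9 and BCL9L act on genes through TCF/LEF factors. CTTTGAT was taken as the core motif of these factors, and only this exact sequence was searched. The motif was searched on both strands in the 250 bases before the transcription start, in RefSeq promoters of build GRCm38.p6. It is present in 1053 of 32851 such windows (3.21%). Promoters were found for 8 of the 10 genes, 11 windows in all, and 1 window, of Tnfrsf19, held the motif. The other Tnfrsf19 window (chr14:61046856-61047105) had no match. The matching Tnfrsf19 window is on the minus strand. Its motif, in capitals, is on the reverse strand and starts 202 bases before the start site. The Ascl2 window, also on the minus strand and without a match, is shown with it. A match here is a match of letters only, and a window without one says nothing about binding elsewhere.
Tnfrsf19 (chr14:61037988-61038237): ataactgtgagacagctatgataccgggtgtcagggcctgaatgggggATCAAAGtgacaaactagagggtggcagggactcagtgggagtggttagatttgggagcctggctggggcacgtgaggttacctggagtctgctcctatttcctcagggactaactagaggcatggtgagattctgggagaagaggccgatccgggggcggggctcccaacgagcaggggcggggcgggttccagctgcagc
Ascl2 (chr7:142969265-142969514): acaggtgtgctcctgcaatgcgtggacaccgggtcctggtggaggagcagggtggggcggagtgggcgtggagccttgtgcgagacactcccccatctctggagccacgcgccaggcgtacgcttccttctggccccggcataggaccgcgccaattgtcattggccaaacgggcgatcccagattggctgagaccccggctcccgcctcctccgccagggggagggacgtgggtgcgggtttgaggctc

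Tnfrsf19, also called Troy, is a receptor of the TNF receptor family that marks Lgr5-positive cells. Its 3 probe sets were all dimmer than the array median and all lay below 0, but 1415921_a_at and 1448147_at were built from the same sequence record. The brightest, 1425212_a_at, read 4.28, 4.71 and 4.44 in the knockouts and 4.35, 4.92 and 4.58 in wild type (-0.14, SE 0.19). The next, 1415921_a_at, was the most even of the markers and stayed within 3.92 to 4.10 (-0.05, SE 0.11). The dimmest, 1448147_at, read 2.89, 2.58 and 2.63 against 2.94, 3.23 and 2.83, a difference of -0.30 (SE 0.16, 95% interval -0.67 to 0.07, limma adjusted p = 0.991). Only knockout 1 overlapped the wild-type arrays in it. Without detection calls, it is not known whether readings this dim exceed background. Of the 3 differences, that of 1425212_a_at became 0.02 without wild type 5, the array highest in all 3 probe sets.

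Prom1 encodes prominin, a membrane protein of stem and progenitor cells that is also found more widely along the epithelium. Its single probe set was the brightest marker reading, at 11.02, 10.78 and 10.93 in the knockouts and 11.01, 11.51 and 10.82 in wild type. Wild type 5 was high and the other 5 arrays lay together. The difference of -0.21 (SE 0.19, 95% interval -0.67 to 0.26, limma adjusted p = 0.991) became -0.01 without wild type 5 and -0.35 without wild type 6.

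Smoc2 and Olfm4 encode secreted proteins, a matricellular calcium-binding protein and an olfactomedin. Smoc2 probe set 1431362_a_at read 7.60, 7.73 and 7.73 in the knockouts and 7.70, 7.13 and 7.90 in wild type (0.11, SE 0.21). The knockouts lay inside the wild-type range, which wild type 5 set at the low end and wild type 6 at the high end. Without wild type 5 the difference was -0.11 and without wild type 6 it was 0.27. The other, 1415935_at, read 7.55, 6.80 and 7.46 against 7.51, 7.39 and 7.25 (-0.11, SE 0.22). Here knockout 2 was low, and without it the difference was 0.12. Connective tissue levels were lowest in knockout 2 (5.04) and highest in wild type 6 (6.22). In 1431362_a_at wild type 6 read highest of all arrays (7.90) and knockout 2 read 7.73. In 1415935_at knockout 2 read lowest (6.80) and wild type 6 lowest of the wild-type arrays (7.25). Smoc2 is made by fibroblasts as well as stem cells, and the part of connective tissue in these values was not tested. Olfm4 marks stem cells of the mouse small intestine and is known to be low or absent in mouse colon. Its single probe set, 1437060_at, was the dimmest marker by mean, at 2.80, 2.53 and 2.99 in the knockouts and 2.63, 2.67 and 2.62 in wild type. The difference of 0.14 (SE 0.14, limma adjusted p = 0.991) is between readings near the bottom of the array, at the 7.12th percentile of probe set means. It was 0.03 without knockout 3 and 0.26 without knockout 2.

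**Figure D3:**
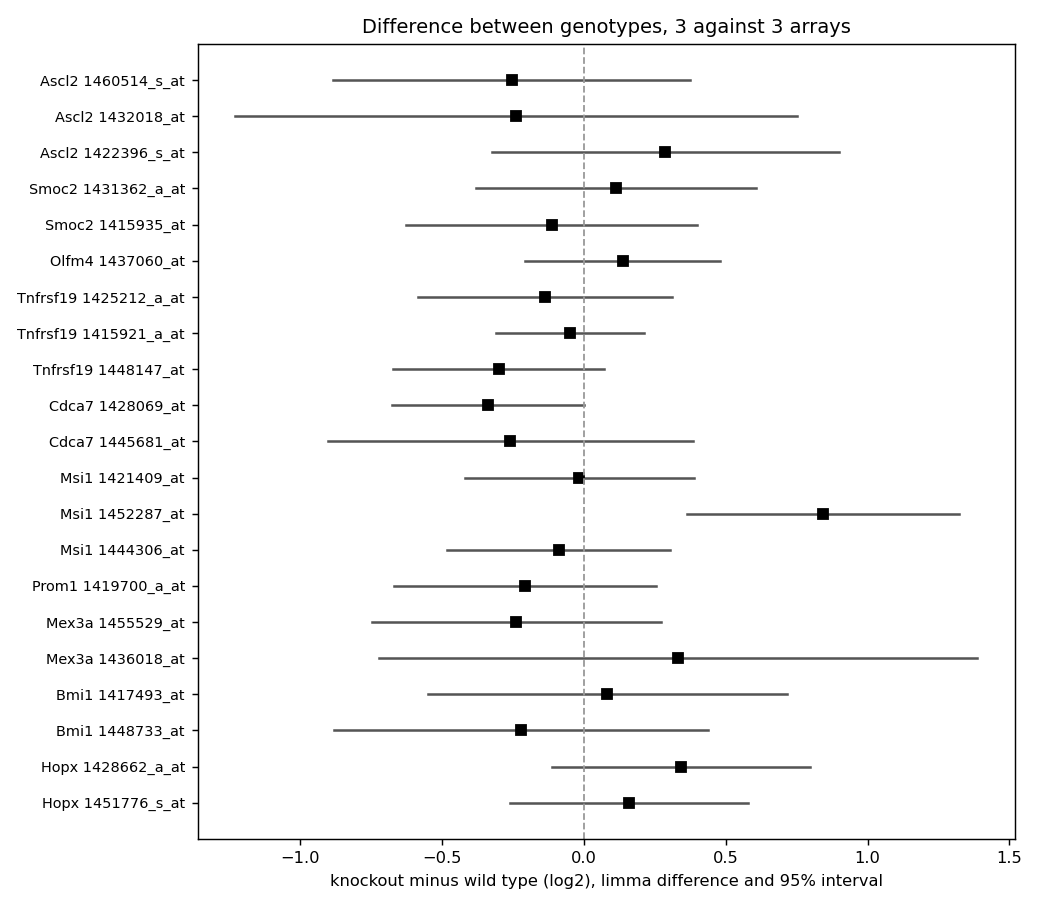
Squares give the limma difference between genotypes, as the log2 value in knockout minus that in wild type, and lines its 95% interval, for each of the 21 marker probe sets. The interval of the Msi1 probe set 1452287_at (0.36 to 1.32) leaves out 0, and the intervals of the other 20 include it.

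Msi1 encodes Musashi, an RNA-binding protein of neural and intestinal progenitors. Its probe set 1452287_at read 6.46, 6.36 and 6.05 in the knockouts and 5.79, 5.44 and 5.12 in wild type. Every knockout array was above every wild-type array. Group means were 6.29 ± 0.22 and 5.45 ± 0.33 (SD, n = 3 each), a 1.79-fold higher reading in the knockouts (0.84, SE 0.20, 95% interval 0.36 to 1.32). The difference missed the adjusted threshold (limma unadjusted p = 0.0045, adjusted p = 0.991). Leaving out single arrays gave 0.68 (without wild type 6) to 1.01 (without wild type 4), with an unadjusted p of at most 0.0191 in each of the 6 fits and an adjusted p of at least 0.795. The other Msi1 probe sets did not show it. Values of 1421409_at, the brightest by mean, were 5.88, 5.96 and 6.09 against 6.15, 6.17 and 5.66, a difference of -0.02 (SE 0.17, 95% interval -0.42 to 0.39). For 1444306_at the readings were 4.50, 4.13 and 4.38 against 4.67, 4.22 and 4.39 (-0.09, SE 0.17). The intervals of these 2 probe sets end at 0.39 and 0.31, and the interval of 1452287_at starts at 0.36. Averaged over its probe sets Msi1 differed by 0.25 (SE 0.14, limma adjusted p = 0.944). Markers of neurons and glia, where Msi1 is also known, averaged 4.88 to 4.99 in knockout arrays and 4.82 to 5.05 in wild-type ones, with 3 of 8 measured genes above the array median.

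Mex3a is another RNA-binding protein, linked to slowly dividing cells among the Lgr5-positive population. Probe set 1455529_at read 5.82, 5.36 and 5.09 in the knockouts and 5.89, 5.47 and 5.61 in wild type (-0.24, SE 0.21). Leaving out knockout 1 gave -0.44 and leaving out knockout 3 gave -0.07. The other, 1436018_at, though built from the same sequence record, had the widest range of all markers. It read 4.96, 3.42 and 4.21 in the knockouts and 4.20, 3.18 and 4.22 in wild type, a spread of 1.78 across arrays. Its difference of 0.33 (SE 0.44, 95% interval -0.72 to 1.39, limma adjusted p = 0.991) was -0.05 without knockout 1. That interval extends past a 2-fold change upward, so the probe set was poorly resolved.

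Cdca7 is a Myc-responsive gene of dividing cells and part of published stem cell signatures. Probe set 1428069_at read 7.42, 7.39 and 7.35 in the knockouts and 7.96, 7.71 and 7.50 in wild type. All 3 knockouts lay below all 3 wild-type arrays, and they were close together (7.38 ± 0.04 against 7.72 ± 0.23, SD, n = 3 each). The difference was -0.34 (SE 0.14, 95% interval -0.68 to 0.0012, limma unadjusted p = 0.0506, adjusted p = 0.991). Without wild type 4, the highest array, it was -0.22 (limma unadjusted p = 0.156). Without wild type 6 it was -0.45 (limma unadjusted p = 0.0155, adjusted p = 0.836). The dimmer 1445681_at also lay below 0, at 4.54, 3.78 and 3.88 against 4.51, 3.89 and 4.59 (-0.26, SE 0.27), with overlapping groups. That difference was -0.50 without knockout 1 and -0.12 without knockout 2. Proliferation genes such as Mki67 and Mcm2 averaged 8.65 to 9.02 in knockout arrays and 8.64 to 8.75 in wild-type ones. Of their 67 probe sets, 33 lay above 0 and 34 below, and 4 (5.97%, against 4.15% of all) had an unadjusted p under 0.05. All 4 were higher in the knockouts, against 2.29% of all probe sets in that direction.

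Bmi1, a Polycomb protein, and Hopx, a small homeodomain protein without DNA binding, were first used to mark cells above the crypt base. Bmi1 probe set 1417493_at read 7.28, 7.21 and 7.69 in the knockouts and 7.17, 7.85 and 6.91 in wild type (0.08, SE 0.27). Its partner 1448733_at, from the same sequence record, read 5.99, 5.59 and 6.56 against 6.27, 6.58 and 5.95 (-0.22, SE 0.28). Both were highest in wild type 5 and next highest in knockout 3, so they agreed on the arrays and did not separate the genotypes. Leaving out single arrays moved the first difference between -0.12 (without wild type 6) and 0.35 (without wild type 5), and the other between -0.48 (without knockout 3) and 0.0049 (without knockout 2). Hopx was bright in both of its probe sets, and both differences lay above 0. In 1428662_a_at it read 10.15, 9.64 and 9.91 in the knockouts and 9.79, 9.62 and 9.27 in wild type, with knockout 1 highest and wild type 6 lowest. The difference was 0.34 (SE 0.19, 95% interval -0.11 to 0.80, limma adjusted p = 0.991), and 0.20 without wild type 6. In 1451776_s_at it read 9.10, 8.58 and 8.63 against 8.66, 8.75 and 8.44 (0.16, SE 0.18), and this difference was -0.01 without knockout 1.

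**Figure D4:**
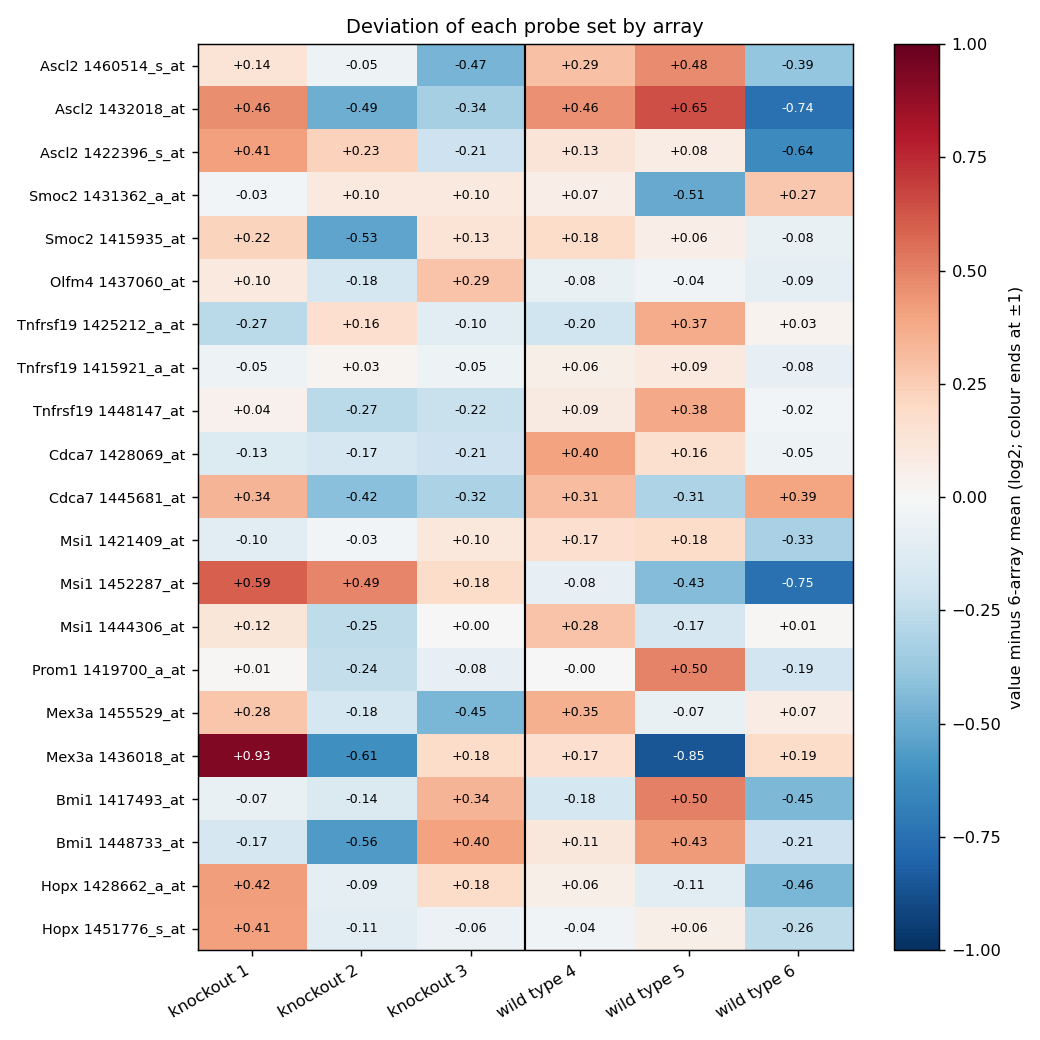
Colours and numbers give each marker's log2 value minus its mean over the 6 arrays, with arrays in columns (knockouts left of the line) and probe sets in rows. Red and blue vary within each genotype, and wild type 6 is the lowest array in 8 of 21 rows while wild type 5 is the highest in 9.

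Across the 21 probe sets, high and low arrays occurred in both genotypes. Wild type 5 held the highest reading in 9 and knockout 1 in 6, while wild type 6 held the lowest in 8 and knockout 2 in 7. The median deviation of the markers from their 6-array means was 0.12, -0.17 and -0.05 in the knockouts and 0.11, 0.08 and -0.09 in wild type. Of the 8 genes with more than 1 probe set, 3 (Tnfrsf19, Cdca7 and Hopx) had all differences on 1 side of 0 and 5 had them on both sides. Nor did the markers follow 1 shared pattern. Ascl2 and Bmi1 were both highest in wild type 5 by their brightest probe sets, whereas the brightest Smoc2 probe set was lowest there.

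For each gene, the gene most alike by its brightest probe set was found by Pearson's r over the 6 arrays, among about 11130 genes above the median brightness. These were Cdkn2b for Ascl2 (r = 0.995), Camsap2 for Smoc2 (0.991), Ccnf for Olfm4 (0.998), Fam118a for Tnfrsf19 (0.991) and AI837181 for Cdca7 (0.990). The rest were Cutc for Msi1 (r = 0.996), Enc1 for Prom1 (0.994), 4930404N11Rik for Mex3a (0.987), 2610528A11Rik for Bmi1 (0.993) and Prps1 for Hopx (0.998). With so many candidates and 6 arrays such values are ordinary: the median gene's closest partner had r = 0.992.

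Other genes of crypt stem cells were taken as a list of 31, of which 28 were measured by 76 probe sets. The list includes Lgr5 and was chosen with earlier results of these data known, so its counts describe it and are no test. Some of its genes enter through several probe sets. Again 0 of the 76 probe sets passed the limma test. Their median difference was -0.03, with 27 above 0 and 49 below, and 10 (13.2%) had an unadjusted p under 0.05, 1 higher and 9 lower, against 2.29% and 1.85% of all probe sets. With 1 value per gene, 0 of the 28 did by the brightest probe set (4.71% of all genes) and 5 by the mean of probe sets (4.77% of all genes). The smallest p belonged to Lgr5, the receptor that marks crypt base stem cells, in a dim probe set (1450988_at, -1.89, SE 0.17, limma adjusted p = 0.326). With single arrays left out, that difference ran from -2.00 (without knockout 1) to -1.77 (without knockout 3). The other Lgr5 probe set, 1444519_at, was about as dim (mean 3.79 against 3.77) and differed by -0.34 (SE 0.19). Cdk6, a cell cycle kinase, differed by -0.78 (SE 0.26), with its other probe sets at -0.37 and -0.58, so all 3 lay below 0. Wdr12, of ribosome assembly, differed by -0.41 (SE 0.15; others -0.14 and -0.06), and Nav1, a microtubule-binding protein, by 0.66 (SE 0.20; others -0.03 to 0.19). The Cd44 probe set, at -0.43 (SE 0.11), was dim, and the brighter ones for this adhesion receptor gave -0.11 to -0.04.

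Fstl1, a secreted glycoprotein also made by connective tissue, differed by -0.65 (SE 0.15) in a dim probe set and by -0.73 (SE 0.59) in the other. The means of both (3.44 and 4.12) lay below the array median. The remaining 4 with an unadjusted p under 0.05, named after their values were seen, were 2 probe sets of Igfbp4 (-1.93 and -1.92), 1 of the water channel Aqp4 (-0.40) and 1 of the BMP co-receptor Rgmb (-0.35). Without wild type 6 the Igfbp4 differences were -1.19 and -1.04. Other probe sets gave -1.36 to -0.26 for Igfbp4, -0.27 and -0.26 for Aqp4 and -0.39 to 0.02 for Rgmb. Igfbp4 and Fstl1 are also expressed by fibroblasts, and 28 of 31 connective tissue probe sets lay below 0 (median -0.15), with list levels of 5.04 to 5.53 in knockout arrays and 5.44 to 6.22 in wild-type ones. Their part in the result was not tested.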

How the data were processed

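The deposited values are on the log2 scale, as read from their range, and were made by the authors with RMA, per the submitters' processing notes (version not stated). RMA corrects background, equalises the arrays' distributions by quantiles and summarises the probes of each set. Scanner files and detection calls were not analysed here. Per the labels' protocols, epithelium was shaken off the muscle after 1.5 to 2 hours in 3 mM EDTA and 0.05 mM DTT, and 30 ng of total RNA from pooled mice was amplified, which can read low transcripts unevenly. Pools are separate samples, so p-values measure the spread between pools. Arrays have no read depth, and their number limits the precision.

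Of 45101 probe sets, 34958 had 1 gene symbol, 932 several and 9211 none, in the platform annotation. The 64 control probe sets were left out, and 45037 were fitted in R 4.3.3 with limma 3.58.1, using lmFit, then eBayes, with genotype as the only term. Tests were two-sided, and Benjamini-Hochberg adjusted p-values, taken over every fitted probe set, were held to 0.05. The fit was tested on simulated data with independent noise and added shifts larger than any marker difference. That test says nothing about smaller changes. Values of different probe sets cannot be compared as transcript levels. A list's level in an array is the mean over its genes of the brightest probe set. Named are all probe sets of the 10 genes, Bcl9, Bcl9l, Lgr5, up to 6 other stem cell genes by unadjusted p, and the most alike genes. Members and lists were chosen with earlier results of these data known. Promoters are from RefSeq.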

Additional observations from a re-analysis of the deposited data

How the results depend on the processing

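Alternatives were cyclic loess, array weights, brighter probe sets only, robust moderation along intensity, dropping those with an _x_at or _s_at suffix, each array left out, and 1 value per gene (the brightest probe set or the mean). No marker probe set passed in the fits that tested it (13 among brighter probe sets, 18 without those suffixes, all 21 in the other probe set fits), and with all 6 arrays kept none changed sign in these fits. No marker gene passed with 1 value per gene. The mean of probe sets gave the opposite sign to the brightest for Smoc2 (-0.00066 against 0.11), Msi1 (0.25 against -0.02), Mex3a (0.05 against -0.24) and Bmi1 (-0.07 against 0.08). No paired analysis was possible because the genotypes share no replicate number. Without wild type 6, 3 probe sets passed over the whole array and none was a marker (0 to 3 over the 6 fits with an array left out).

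Marker probe sets with an unadjusted p under 0.05 numbered 2 under cyclic loess (3.89% of all probe sets), 3 with array weights (5.40%) and 1 to 3 with an array left out (3.26% to 5.76%, with 3 without wild type 6). Of 10 marker genes, 1 did by the brightest probe set (4.71% of all genes) and 0 by the mean (4.77%). That gene was Cdca7 (-0.34, limma unadjusted p = 0.0456, adjusted p = 0.953). Cdca7 1428069_at was also counted under cyclic loess (limma unadjusted p = 0.0122), with array weights (0.0165) and without wild type 6 (0.0155). It was not counted in the other fits by probe set. Marker probe sets whose groups did not overlap numbered 3 to 6 with an array left out (17.6% to 22.0% of all probe sets). Of the marker genes, 1 was so separated by the brightest (10.3% of all genes) and 1 by the mean (10.5%). The markers' median difference ran from -0.13 (without wild type 6) to 0.0049 (without knockout 2). In the list of other stem cell genes the count was 6 of 56 among brighter probe sets (4.45% of all such), 0 of 28 genes by the brightest (4.71% of all genes), 5 of 28 by the mean (4.77%) and, of 76 probe sets, 4 without knockout 2 (4.46% of all) to 16 without wild type 4 (5.16%).

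With an array left out, 10 marker differences changed sign in at least 1 fit. They ran from -0.67 to 0.023 (Ascl2 1432018_at), -0.11 to 0.27 (Smoc2 1431362_a_at), -0.25 to 0.12 (Smoc2 1415935_at), -0.27 to 0.015 (Tnfrsf19 1425212_a_at), -0.18 to 0.071 (Msi1 1421409_at), -0.19 to 0.032 (Msi1 1444306_at), -0.049 to 0.72 (Mex3a 1436018_at), -0.12 to 0.35 (Bmi1 1417493_at), -0.48 to 0.0049 (Bmi1 1448733_at) and -0.0052 to 0.25 (Hopx 1451776_s_at). The cause was not tested.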
